A study of Mus musculus with 12 samples.

Results

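Splicing factors and other RNA-binding regulators were examined in mouse cells reprogrammed with Oct4 and Tet1 (an oxidase of methylated DNA). The members were chosen by gene symbol. They are all genes read by a probe set with 1 symbol whose symbol begins with Srsf, Hnrnp, Sf3a, Sf3b, Prpf, Snrp, Lsm, Rbm, Rbms, Rbpms, Rbfox, Celf, Mbnl, Khdrbs, Igf2bp or Lin28, or is Qk. In the case of Rbm and Lsm, a number has to follow. The rule found 105 genes, each with 1 probe set, among 9539 genes and 10360 probe sets in the deposited table. It used no measured value.

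RNA was measured on 12 Affymetrix arrays in 4 groups of 3 arrays. Fibroblasts were at passage 3 and carried an Oct4-GFP reporter (OG2-GFP) and a Rosa26 transactivator that responds to doxycycline. It is labelled M2rtTA in replicate 1, M3rtTA in replicate 2 and M4rtTA in replicate 3. Day-1 cells, labelled OG2-GFP/Rosa26-M2rtTA, were fibroblasts at passage 3 derived from Oct4 and Tet1 (OT) iPS cells, and had been given doxycycline in ES cell medium for 1 day to induce both factors. The iPS group was a single line, OT#b, at passage 10 with the same genotype label. R1 ES cells, an established line of strain 129, were at passage 20. Both pluripotent lines grew on feeder fibroblasts treated with mitomycin C, and a step that lets feeders settle out is stated for the ES cells only. Whether a group's arrays hold RNA of separate cultures is not stated, so the p-values rest on the spread between these samples, which may be technical. No batch or scan date is given in the labels.

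Splicing removes introns from pre-mRNA. The spliceosome is built from small nuclear ribonucleoproteins (snRNPs), whose Sm, Sm-like (Lsm), SF3 and Prpf proteins hold the splice sites and the branch point. SR proteins, encoded by the Srsf genes, bind exons and mostly favour their inclusion, while hnRNP proteins coat pre-mRNA and often repress exons. Mbnl, Celf, Rbfox, Qk and Khdrbs proteins set the exon choices of particular tissues, and Mbnl proteins are known to repress exon choices typical of ES cells. Lin28 and Igf2bp proteins act later: Lin28a and Lin28b bind the loop of let-7 microRNA precursors and block their maturation, and Igf2bp proteins bind and stabilise mRNAs, several of them let-7 targets.

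Levels are log2 values per probe set, and an increase of 1 is a doubling of signal. The arrays of a group correlated with r between 0.988 and 0.997 across genes, and a log2 difference had a median standard error of 0.09. Every probe set in the table ranged over at least 0.51 between its lowest and highest array, and every member over at least 0.58, so genes with steady levels seem to have been left out before deposit. The 14 pluripotency markers averaged 5.43 to 5.68 on fibroblast arrays, 6.14 to 6.21 on day-1 arrays, 11.23 to 11.27 on iPS arrays and 11.48 to 11.56 on ES arrays, and the 13 measured fibroblast markers averaged 11.01 to 11.27, 10.73 to 10.83, 8.34 to 8.46 and 7.38 to 7.79 in the same order. Pou5f1, which encodes Oct4, stood at 11.85, 11.73 and 11.81 at day 1, against 4.96, 5.24 and 4.91 in fibroblasts. The RNA came from whole cultures, in which fewer cells of a type and less RNA per cell cannot be told apart.

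In both pluripotent lines 58 of the 64 measured SR, hnRNP, SF3, Prpf, Snrp and Lsm genes were above fibroblasts. Of all 9539 genes, 4271 were above fibroblasts in iPS cells, 4373 in ES cells and 5219 in day-1 cells. A small group of tissue regulators was far lower. RefSeq lists 143 protein-coding genes with symbols under the rule, and 38 are not among the members. Whether those 38 had steady levels was not tested. A gene was called when its limma adjusted p was under 0.05 and its difference at least 2-fold. In iPS cells 46 of the 105 members rose and 10 fell against fibroblasts, where 21.8% of all genes rose and 29.6% fell. In ES cells 59 rose and 10 fell, against 23.4% and 32.1% of all genes. In day-1 cells 2 members rose and 3 fell against fibroblasts, where 3.46% of all genes rose and 4.33% fell. Between iPS and ES cells 1 member was higher in iPS cells and 2 were lower, against 4.44% and 2.45%. Between iPS and day-1 cells 38 rose and 9 fell, against 17.6% and 26.6%. At day 1 the shares of members called, 1.9% higher and 2.86% lower, rest on few genes and were close to those of all genes. In the 3 comparisons of a pluripotent line with fibroblasts or day-1 cells the share of members called was above that of all genes for rises and below it for falls. The same shares of all genes are the background for the counts by family and by list that follow.

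The median member differed by 0.91 in iPS cells and 1.09 in ES cells against fibroblasts, where the median of all 9539 genes was -0.35 in each. At day 1 the members' median was 0.16 and that of all genes 0.05. Centring the arrays on a common median moved the median of all genes to -0.10 in iPS cells, and the counts of members to 61 higher and 10 lower, with 29.0% of all genes higher and 22.8% lower. After quantile normalization that median was -0.18, the members' counts 57 and 10, and the shares of all genes 26.6% and 24.5%. In ES cells the centred counts were 76 higher and 9 lower, with 33.8% and 23.7% of all genes. Fibroblasts had the lowest mean for 62 of the 105 members, day-1 cells for 23, and each pluripotent line for 10. ES cells had the highest mean for 64, iPS cells for 21, fibroblasts for 12 and day-1 cells for 8.

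**Figure D1:**
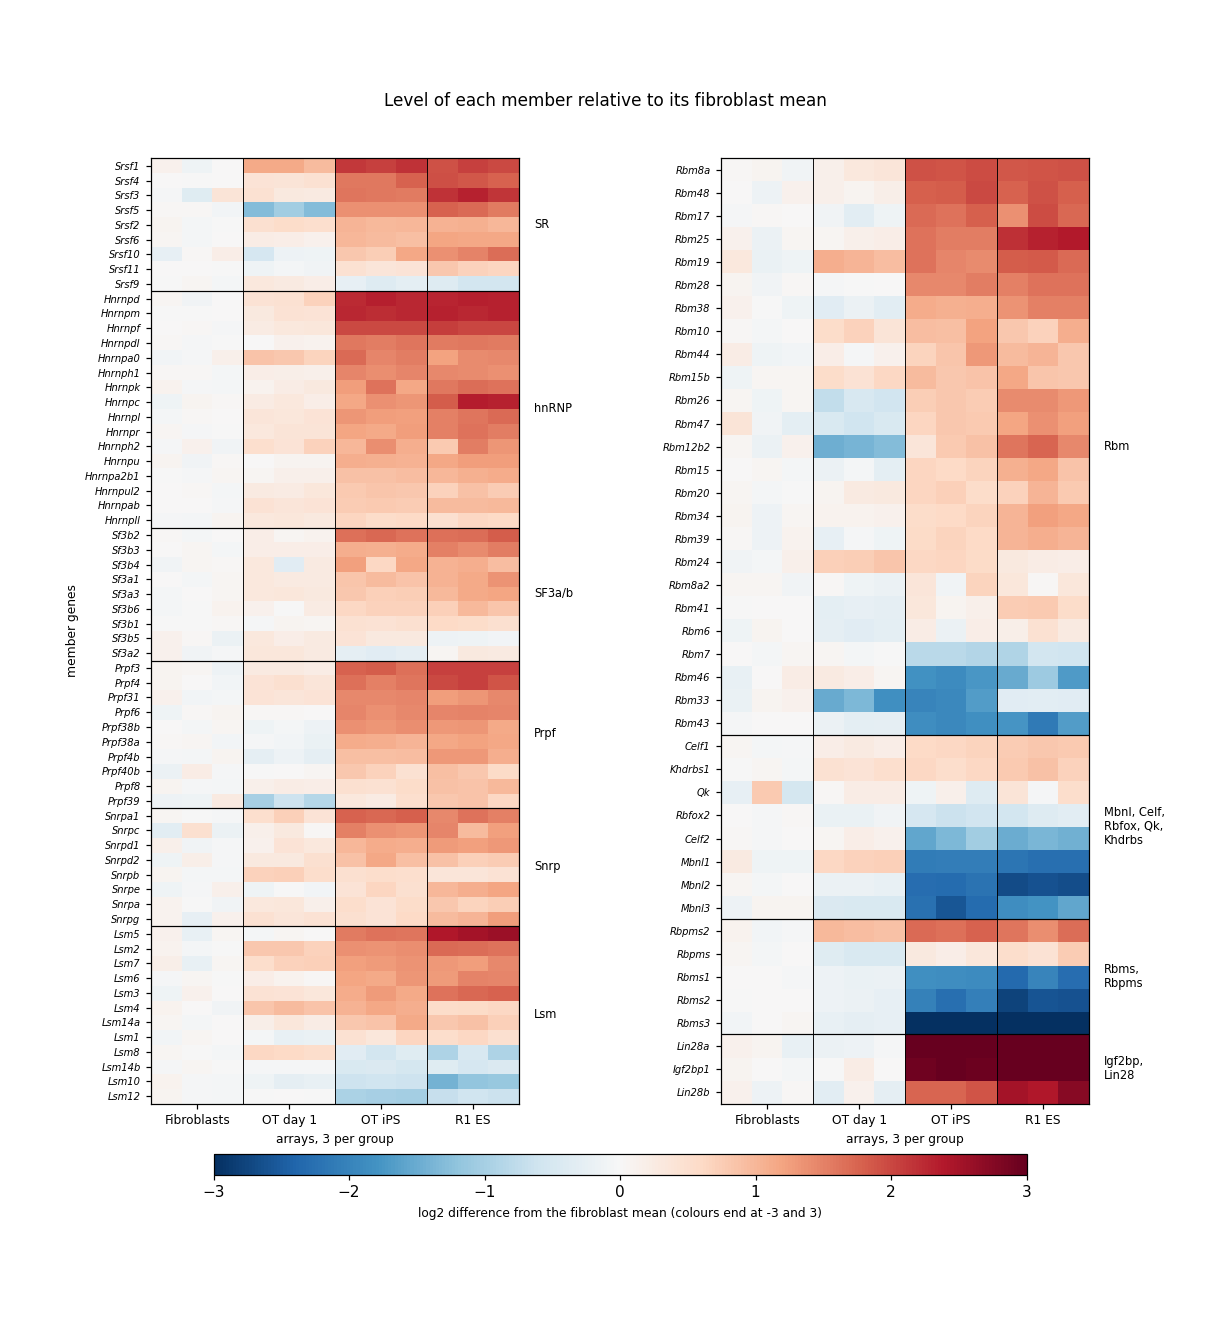
Log2 difference of each of the 105 members (rows, by family) from its fibroblast mean on each of the 12 arrays (columns). Red rows of the SR, hnRNP, SF3, Prpf and Snrp families stand out in iPS and ES cells, blue rows are mostly the Mbnl and Rbms genes, and Srsf5, Rbm12b2 and Rbm33 are blue at day 1.

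**Figure D2:**
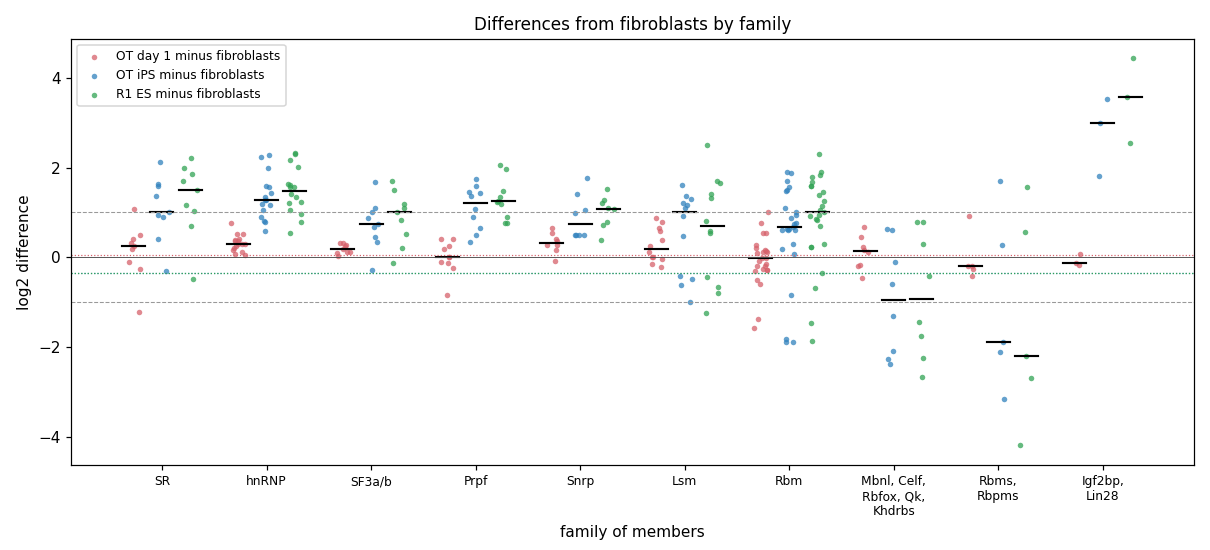
Log2 differences from fibroblasts (vertical axis) by family (horizontal axis) for day-1, iPS and ES cells. Points are members, short black lines family medians, dashed lines the 2-fold bounds and dotted lines the medians of all genes (0.05 at day 1, -0.35 in iPS and ES cells); the hnRNP medians are 0.31, 1.27 and 1.48.

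The 3 oncofetal regulators Lin28a, Lin28b and Igf2bp1 were at their lowest in fibroblasts and day-1 cells and far higher in both pluripotent lines. Igf2bp2 and Igf2bp3 were not analysed here. Lin28a is shown first, with Lin28b, since these 2 let-7 inhibitors had the same direction from promoters of different base composition. The 300-base windows run from 250 bases before the start of transcription to 50 after it and come from RefSeq, build GRCm38.p6 (Lin28a chr4:134018767-134019066, minus strand, and Lin28b chr10:45470152-45470451, minus strand). Capitals mark a CCAAT box (CCAAT, or ATTGG on the other strand) and an E-box (CACGTG), both found in the Lin28b window, and the Lin28a window holds neither.
Lin28a: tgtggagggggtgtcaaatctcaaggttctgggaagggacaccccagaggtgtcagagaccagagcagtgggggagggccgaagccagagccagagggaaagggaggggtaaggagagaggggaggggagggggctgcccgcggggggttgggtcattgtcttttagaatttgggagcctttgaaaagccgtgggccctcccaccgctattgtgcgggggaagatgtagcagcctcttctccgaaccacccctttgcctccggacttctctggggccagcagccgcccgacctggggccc
Lin28b: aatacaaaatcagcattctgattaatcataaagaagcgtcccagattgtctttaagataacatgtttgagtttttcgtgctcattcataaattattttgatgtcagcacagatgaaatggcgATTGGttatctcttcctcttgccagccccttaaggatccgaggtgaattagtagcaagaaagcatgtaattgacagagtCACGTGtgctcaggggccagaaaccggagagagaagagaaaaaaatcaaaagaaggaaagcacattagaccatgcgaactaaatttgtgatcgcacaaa
G and C made up 63.3% of the Lin28a window and 39.0% of the Lin28b window.

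Lin28a had log2 levels of 6.36, 6.32 and 6.0 on the fibroblast arrays, 6.06, 6.07 and 6.19 on the day-1 arrays, 9.86, 9.71 and 9.69 on the iPS arrays and 9.71, 9.73 and 9.91 on the ES arrays. Fibroblasts and day-1 cells overlapped, as did the 2 pluripotent lines, and nothing lay between these pairs. The rise in iPS cells over fibroblasts was 3.52 ± 0.10 (SE), or 11.5-fold (limma adjusted p = 2.8e-12). Between iPS and ES cells Lin28a differed by -0.03, with a 95% interval of -0.25 to 0.18.

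For Igf2bp1 and Lin28b the fibroblast and day-1 arrays overlapped, and iPS cells lay above both and below ES cells. For Igf2bp1, which binds mRNAs such as that of Myc, the levels were 5.25, 5.17 and 5.10 in fibroblasts, 5.15, 5.40 and 5.19 at day 1, 8.09, 8.26 and 8.12 in iPS cells, and 9.37, 9.71 and 9.74 in ES cells. The iPS and ES arrays did not overlap, and Igf2bp1 was 2.74-fold lower in iPS than in ES cells (difference -1.45 ± 0.10, SE; limma adjusted p = 2.4e-07). Against fibroblasts it rose by 2.98 ± 0.10 in iPS cells and by 4.43 ± 0.10 in ES cells, the largest rise of any member there. Lin28b had 6.56, 6.56 and 6.70 in iPS cells and 7.31, 7.22 and 7.54 in ES cells, against 4.93, 4.66 and 4.84 in fibroblasts and 4.50, 4.93 and 4.54 at day 1. Its iPS cells lay below its ES cells without overlap, by 0.75 ± 0.12 (limma adjusted p = 0.00018), which is under the 2-fold bound.

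The microRNA precursors that Lin28 proteins bind were also on the array, as 6 let-7 probe sets, looked up in addition to the gene lists. No source says if such a probe set reads the hairpin, its host transcript or both, and mature let-7 was not measured. The 4 hairpins that were called in some comparison are shown as RNA, from RefSeq, build GRCm38.p6. Mirlet7d lies at chr13:48536012-48536114, minus strand, Mirlet7f-1 at chr13:48537829-48537917, minus strand, Mirlet7a-2 at chr9:41536716-41536811, plus strand, and Mirlet7g at chr9:106178840-106178927, plus strand. Capitals mark the shared seed GAGGUAG (bases 2 to 8 of the mature microRNA) and GGAG, the letters in the loop region that Lin28 is known to contact.
Mirlet7d: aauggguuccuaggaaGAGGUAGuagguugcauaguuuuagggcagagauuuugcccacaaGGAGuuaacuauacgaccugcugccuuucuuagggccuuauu
Mirlet7f-1: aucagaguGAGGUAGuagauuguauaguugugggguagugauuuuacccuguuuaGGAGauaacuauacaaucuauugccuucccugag
Mirlet7a-2: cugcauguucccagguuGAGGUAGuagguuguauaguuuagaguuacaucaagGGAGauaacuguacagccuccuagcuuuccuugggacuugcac
Mirlet7g: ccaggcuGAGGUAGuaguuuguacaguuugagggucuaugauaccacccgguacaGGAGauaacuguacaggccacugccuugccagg
Mirlet7d and Mirlet7f-1 lie close together on the same strand of chromosome 13.

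All 6 let-7 probe sets were lower at day 1 than in fibroblasts, by 0.20 to 1.58, and 2 of them were called. Of all 9539 genes 4320 were lower there. Mirlet7d had 5.75, 6.21 and 6.22 at day 1, against 7.57, 7.63 and 7.72 in fibroblasts, without overlap (-1.58 ± 0.12, SE; limma adjusted p = 3.3e-07). Mirlet7a-2 fell too, by 1.17 ± 0.14. In iPS cells the neighbours on chromosome 13 parted. Mirlet7f-1 rose by 1.71 ± 0.16 over fibroblasts, with 6.55, 6.55 and 6.58 in iPS cells, against 4.67, 5.0 and 4.89 in fibroblasts. Mirlet7d differed from fibroblasts by -0.32 ± 0.12 in iPS cells and -0.35 ± 0.12 in ES cells, where Mirlet7f-1 rose by 2.28 ± 0.16, Mirlet7g rose by 1.30 ± 0.12 and Mirlet7a-2 fell by 1.02 ± 0.14.

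A list of microRNA processing factors and let-7 targets held 25 symbols, of which 11 were measured. Against fibroblasts 3 (27.3%) rose and 2 (18.2%) fell in iPS cells, beside 21.8% and 29.6% of all genes. In ES cells 6 (54.5%) rose and 1 (9.09%) fell, beside 23.4% and 32.1% of all genes. The share of rises in iPS cells was thus near that of all genes. The median was 0.78 in iPS cells and 1.05 in ES cells. Trim71, a let-7 target that represses mRNAs in early development, rose by 4.14 ± 0.23 in iPS cells and by 4.77 ± 0.23 in ES cells. Another classical let-7 target went the opposite way: Hmga2, a chromatin protein of proliferating mesenchyme, fell by 2.27 ± 0.15 in iPS cells and by 3.30 ± 0.15 in ES cells. Drosha, which cuts microRNA hairpins out of their transcripts, rose by 1.36 ± 0.11 and 2.08 ± 0.11. At day 1 limma called 0 of the 11, and 2 had an unadjusted p under 0.05, beside 5870 of all 9539 genes.

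Muscleblind genes gave the clearest falls among the tissue regulators. All 3, Mbnl1, Mbnl2 and Mbnl3, were lower in iPS and ES cells, and so was Celf2, while Celf1, Khdrbs1, Rbfox2 and Qk stayed within 2-fold. Khdrbs3 was not analysed here. The promoter of Mbnl2 is shown as an example of a falling member's (chr14:120275419-120275718, plus strand, GRCm38.p6). Capitals mark CCAAT boxes on either strand.
Mbnl2: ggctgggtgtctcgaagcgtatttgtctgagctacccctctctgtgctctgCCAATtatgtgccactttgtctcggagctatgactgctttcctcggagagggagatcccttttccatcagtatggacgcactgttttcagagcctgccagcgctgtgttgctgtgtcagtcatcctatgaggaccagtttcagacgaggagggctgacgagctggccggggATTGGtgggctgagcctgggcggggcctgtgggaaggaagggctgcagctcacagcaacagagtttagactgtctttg
It holds 10 CpG dinucleotides.

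Mbnl2 had 11.97, 11.86 and 11.93 in fibroblasts, 11.74, 11.74 and 11.7 at day 1, 9.64, 9.61 and 9.71 in iPS cells and 9.23, 9.31 and 9.27 in ES cells. No 2 groups overlapped. The fall against fibroblasts was 4.80-fold in iPS cells (-2.26 ± 0.06, SE; limma adjusted p = 2.1e-12) and 6.27-fold in ES cells. Mbnl1 was higher in day-1 cells, with 11.16, 11.21 and 11.24, against 10.79, 10.41 and 10.39 in fibroblasts. The difference of 0.68 ± 0.09 (limma adjusted p = 5.4e-05) is under the 2-fold bound. In iPS cells Mbnl1 had 8.44, 8.46 and 8.45, and in ES cells 8.35, 8.26 and 8.27. Against day-1 cells Mbnl1 was 6.77-fold lower in iPS cells. Mbnl3 had 6.73, 6.40 and 6.66 in iPS cells and 7.10, 7.18 and 7.42 in ES cells, against 8.82, 9.05 and 9.05 in fibroblasts. Between iPS and ES cells Mbnl3 differed by -0.63 ± 0.10 and Mbnl2 by 0.39 ± 0.06, opposite in sign and both under the 2-fold bound.

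Celf2, an exon regulator of muscle, brain and lymphocytes, fell by 1.31 ± 0.10 in iPS cells and by 1.44 ± 0.10 in ES cells. Its relative Celf1 had means of 10.25 ± 0.06 (SD, n = 3) in fibroblasts, 10.47 ± 0.04 at day 1, 10.88 ± 0.03 in iPS cells and 11.03 ± 0.02 in ES cells. The Celf1 difference of 0.63 ± 0.06 (SE) in iPS cells had a limma adjusted p of 3.4e-07 and did not reach 2-fold. Rbfox2, a regulator with high levels in mesenchyme, differed by -0.58 ± 0.07 in iPS cells and -0.42 ± 0.07 in ES cells. Qk, the quaking gene, could not be placed. Its fibroblast arrays alone spread over 8.3, 9.33 and 8.03, all 4 groups overlapped, and the 95% interval of its iPS difference ran from -0.69 to 0.46.

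The Rbms genes, which encode single-strand nucleic acid binders found in mesenchyme, fell together. Rbms3 had 10.44, 10.53 and 10.59 in fibroblasts, 10.29, 10.26 and 10.27 at day 1, 7.39, 7.26 and 7.45 in iPS cells and 6.45, 6.39 and 6.17 in ES cells. The 4 groups lay apart from one another. Its differences from fibroblasts, -3.15 ± 0.08 (SE; limma adjusted p = 1.5e-12) in iPS cells and -4.18 ± 0.08 in ES cells, were the lowest of all members. Rbms2 fell by 2.11 ± 0.08 and 2.67 ± 0.08, and Rbms1, first known as a binder of the Myc gene region, by 1.87 ± 0.08 and 2.20 ± 0.08 in the same 2 lines.

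The related Rbpms2, known in smooth muscle precursors, went up instead. It had 10.18, 10.14 and 10.24 in iPS cells and 10.09, 9.88 and 10.15 in ES cells, against 8.59, 8.39 and 8.45 in fibroblasts. Day-1 cells stood between, at 9.46, 9.41 and 9.35, which is 0.93 ± 0.08 (SE) above fibroblasts (limma adjusted p = 1.2e-06) and just under the 2-fold bound. Rbpms differed from fibroblasts by -0.42 ± 0.09 at day 1 (limma adjusted p = 0.0011), opposite in sign to Rbpms2. In iPS and ES cells Rbpms differed by 0.27 ± 0.09 and 0.57 ± 0.09, all under the bound. All 8 smooth muscle markers lay above fibroblasts at day 1 (median 0.49) and 2 of them were called, and their array means were 10.76 to 10.85 in day-1 cells and 10.12 to 10.36 in fibroblasts. In iPS cells, where Rbpms2 rose by 1.71 ± 0.08, 1 of those markers rose and 4 fell, and in ES cells, where it rose by 1.56 ± 0.08, 0 rose and 6 fell by limma, with 7 at an unadjusted p under 0.05. The part of such cells in the Rbpms2 level was not tested.

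**Figure D3:**
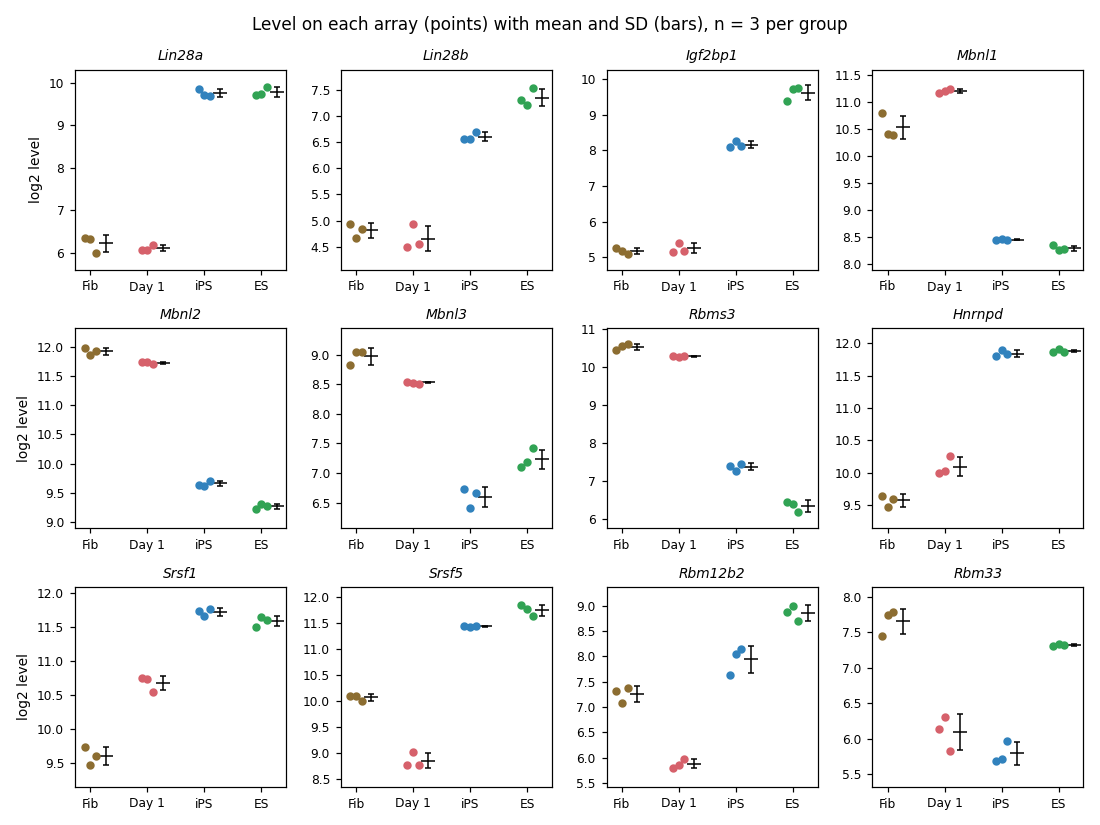
Log2 level (vertical axes) of 12 members on each array of the 4 groups (horizontal axes), with mean and SD at the right of each group, n = 3. Lin28a, Lin28b and Igf2bp1 are low in fibroblasts and day-1 cells, where the Mbnl genes and Rbms3 are high. Srsf5 and Rbm12b2 have their lowest levels at day 1.

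Among the hnRNP genes every measured member was above fibroblasts in both lines. Of 16, 12 rose in iPS cells and 13 in ES cells, with medians of 1.27 and 1.48, and 0 fell by limma, since all 16 had an adjusted p under 0.05 and a difference above 0. Hnrnpd, which encodes the AU-rich element binder Auf1, and Hnrnpm, a splicing repressor and activator, led the family in iPS cells. Their promoters are shown as those of the family's strongest rises (Hnrnpd chr5:99978889-99979188, minus strand, and Hnrnpm chr17:33685409-33685708, minus strand, GRCm38.p6). Capitals mark an E-box (CACGTG), an ETS motif (CCGGAAGT, or ACTTCCGG on the other strand) in Hnrnpd and a TATA box (TATAAA) far ahead of the start in Hnrnpm.
Hnrnpd: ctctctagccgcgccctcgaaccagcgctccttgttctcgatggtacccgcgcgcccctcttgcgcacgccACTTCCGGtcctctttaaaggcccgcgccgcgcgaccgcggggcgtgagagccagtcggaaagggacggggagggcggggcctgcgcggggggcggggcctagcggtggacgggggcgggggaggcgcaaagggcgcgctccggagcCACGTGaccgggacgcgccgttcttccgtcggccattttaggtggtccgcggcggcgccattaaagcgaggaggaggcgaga
Hnrnpm: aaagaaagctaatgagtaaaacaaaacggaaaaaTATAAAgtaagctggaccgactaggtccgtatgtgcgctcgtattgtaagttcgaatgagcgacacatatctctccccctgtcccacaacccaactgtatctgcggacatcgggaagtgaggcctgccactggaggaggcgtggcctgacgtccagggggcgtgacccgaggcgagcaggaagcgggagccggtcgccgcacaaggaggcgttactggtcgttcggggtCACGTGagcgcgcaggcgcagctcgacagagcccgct
The Hnrnpd window holds 45 CpG dinucleotides and the Hnrnpm window 27.

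Hnrnpd had 11.80, 11.90 and 11.83 in iPS cells and 11.86, 11.91 and 11.87 in ES cells, against 9.64, 9.46 and 9.59 in fibroblasts. The lines overlapped each other and lay 2.28 ± 0.08 (SE; limma adjusted p = 1.7e-11) and 2.32 ± 0.08 above fibroblasts. Hnrnpm had 12.27, 12.23 and 12.28 in iPS cells, 12.33, 12.29 and 12.33 in ES cells, against 10, 10.01 and 10.04 in fibroblasts. Its difference between iPS and ES cells was -0.06, with a 95% interval of -0.19 to 0.07. Hnrnpf, which binds G-rich runs near splice sites, rose by 1.98 ± 0.06 in iPS cells and 2.02 ± 0.06 in ES cells. Hnrnpc, a binder of uridine runs, was the hnRNP gene that differed most between the lines: 10.48, 10.68 and 10.64 in iPS cells, against 11.14, 11.68 and 11.64 in ES cells (-0.89 ± 0.12; limma adjusted p = 5.6e-05), under the 2-fold bound. At day 1 all 16 hnRNP differences were above 0, from 0.05 for Hnrnpu to 0.77 for Hnrnpa0, and limma called 0 of them. Of all 9539 genes 5219 were above 0 there. An unadjusted p under 0.05 was reached by 11 of the 16, and by 5870 of all 9539 genes.

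Hnrnpa0, a small relative of the hnRNP A proteins, had 9.45, 9.40 and 9.27 at day 1, against 8.51, 8.56 and 8.75 in fibroblasts, and 10.31, 10.07 and 10.14 in iPS cells and 9.81, 10.02 and 10.04 in ES cells. The difference at day 1, 0.77 ± 0.09 (SE; limma adjusted p = 1.8e-05), was under the 2-fold bound, and iPS cells lay another 0.80 ± 0.09 above day-1 cells. Hnrnpu, a nuclear scaffold protein, had 11.46, 11.53 and 11.53 at day 1, against 11.54, 11.34 and 11.48 in fibroblasts, which overlapped. Its rise of 1.06 ± 0.07 in iPS cells over fibroblasts was matched by 1.01 ± 0.07 over day-1 cells, a call that ended without day-1 replicate 1 (0.98). Hnrnpl, which binds CA repeats, rose by 1.27 ± 0.07 in iPS cells and 1.61 ± 0.07 in ES cells. Hnrnpab stayed just below the bound in ES cells, at 0.96 ± 0.06, and Hnrnpa2b1 just above it, at 1.06 ± 0.06.

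Of 9 SR protein genes, 4 rose in iPS cells (median 1.00) and 7 in ES cells (median 1.51), against fibroblasts. At day 1 Srsf1 rose and Srsf5 fell. Their promoters are given because of that day-1 contrast (Srsf1 chr11:88047123-88047422, plus strand, and Srsf5 chr12:80945249-80945548, plus strand, GRCm38.p6), with a CCAAT box in capitals in Srsf1 and 2 ETS motifs, on opposite strands, in Srsf5.
Srsf1: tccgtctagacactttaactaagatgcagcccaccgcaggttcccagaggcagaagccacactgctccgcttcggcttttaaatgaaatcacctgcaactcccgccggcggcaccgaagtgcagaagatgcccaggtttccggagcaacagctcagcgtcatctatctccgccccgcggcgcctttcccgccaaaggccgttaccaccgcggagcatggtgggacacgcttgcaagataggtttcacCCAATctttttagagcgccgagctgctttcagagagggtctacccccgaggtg
Srsf5: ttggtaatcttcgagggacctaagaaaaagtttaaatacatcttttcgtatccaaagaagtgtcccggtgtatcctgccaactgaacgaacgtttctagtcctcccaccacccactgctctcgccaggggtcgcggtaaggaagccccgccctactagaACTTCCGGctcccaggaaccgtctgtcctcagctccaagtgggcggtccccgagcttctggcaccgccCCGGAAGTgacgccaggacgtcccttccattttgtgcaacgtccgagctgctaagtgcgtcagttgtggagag
Srsf1, the founding SR protein, had 10.75, 10.74 and 10.55 at day 1, against 9.74, 9.47 and 9.61 in fibroblasts. The groups did not overlap, and the rise was 2.11-fold (1.07 ± 0.08, SE; limma adjusted p = 3.6e-07). It reached 11.74, 11.66 and 11.77 in iPS cells and 11.51, 11.65 and 11.60 in ES cells.

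Srsf5 had 8.76, 9.02 and 8.76 at day 1, against 10.10, 10.10 and 9.99 in fibroblasts, again without overlap but in the other direction (-1.22 ± 0.08, SE; limma adjusted p = 1.2e-07). In iPS cells it stood at 11.44, 11.43 and 11.45 and in ES cells at 11.85, 11.77 and 11.64, above fibroblasts by 1.37 ± 0.08 and 1.69 ± 0.08. Its iPS level was 6.02-fold above that of day-1 cells. Srsf3, whose protein also binds exons of its own mRNA, rose by 1.58 ± 0.14 in iPS cells and 2.21 ± 0.14 in ES cells, with fibroblast levels of 7.26, 6.93 and 7.68. Srsf2 lay on the 2-fold bound, at 1.00 ± 0.06 in iPS cells and 1.03 ± 0.06 in ES cells. The ES call ended without fibroblast replicate 2. The exception in direction was Srsf9, named for that after its values were seen: -0.31 ± 0.07 in iPS cells and -0.49 ± 0.07 in ES cells.

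SR proteins act with SR-like partners and are switched by kinases. Tra2a, an SR-like exon activator outside the symbol rule, had 6.82, 7.10 and 6.64 at day 1, against 8.76, 8.93 and 9.02 in fibroblasts, and fell by 2.05 ± 0.11 (SE; limma adjusted p = 1.9e-08). It had 9.94, 9.91 and 10.01 in iPS cells and 9.66, 9.89 and 9.64 in ES cells. Day-1 cells were thus the lowest group for Tra2a, as for Srsf5. Clk1, a kinase that phosphorylates SR proteins, differed by -0.42 ± 0.08 at day 1 and rose by 1.03 ± 0.08 in iPS cells. Of 5 measured splicing kinases and phosphatases, 2 rose and 1 fell in iPS cells: Ppm1g and Clk1 rose, and Hipk2 fell by 2.4 ± 0.08. In ES cells Clk3 fell as well (-1.55 ± 0.07).

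Of 9 SF3 genes, whose proteins clamp the branch site as part of the U2 snRNP, 3 rose in iPS cells and 5 in ES cells, with medians of 0.75 and 1.02. Sf3b2 led with 9.98, 10.05 and 9.96 in iPS cells and 9.97, 10 and 10.13 in ES cells, against 8.36, 8.27 and 8.33 in fibroblasts, a 3.19-fold rise in iPS cells (1.67 ± 0.07, SE; limma adjusted p = 6.1e-11). Sf3b1, the subunit often mutated in human blood cancers, differed by 0.45 ± 0.06. Sf3b4 lay just above the bound at 1.01 ± 0.17, and its call ended without iPS replicate 1 or 3 or fibroblast replicate 1. Sf3a2 differed by -0.28 ± 0.08 in iPS cells, and Sf3b5 differed by -0.12 ± 0.08 in ES cells, a sign that turned under both other scalings.

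The Prpf genes, for proteins of the U4/U6 and U5 snRNPs and the catalytic core, were all above fibroblasts in both lines. Of 10, 6 rose in iPS cells and 7 in ES cells, with medians of 1.22 and 1.24. Prpf3, a U4/U6 protein, had 9.67, 9.72 and 9.56 in iPS cells and 9.96 on all 3 ES arrays, against 8.0, 7.96 and 7.76 in fibroblasts. Prpf8, which holds the catalytic centre, differed by 0.51 ± 0.07 (SE) in iPS cells and 0.91 ± 0.07 in ES cells, both under the bound. Prpf39, a U1-associated protein, followed Srsf5 at day 1 without reaching the bound, at -0.83 ± 0.13 (limma adjusted p = 0.00013), and rose by 1.18 ± 0.13 in iPS over day-1 cells.

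Of 8 Snrp genes for Sm and snRNP proteins, 3 rose in iPS cells and 5 in ES cells. All 8 were above fibroblasts in both. Snrpa1, the U2-specific A' protein, had 10.58, 10.54 and 10.60 in iPS cells and 10.26, 10.43 and 10.33 in ES cells, against 8.87, 8.79 and 8.77 in fibroblasts. It rose by 1.77 ± 0.08 (SE; limma adjusted p = 1.8e-10) in iPS cells. The core ring proteins Snrpe and Snrpg were at 0.50 ± 0.09 and 0.49 ± 0.11 in iPS cells, below 2-fold, and rose by 1.09 ± 0.09 and 1.07 ± 0.11 in ES cells. The Snrpg call in ES cells ended without fibroblast replicate 2 or ES replicate 3.

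Snrpb, another Sm ring protein, had its highest levels in day-1 cells. It had 10.55, 10.41 and 10.41 in fibroblasts, 11.15, 11.18 and 10.99 at day 1, 10.95, 10.98 and 10.96 in iPS cells and 10.82, 10.83 and 10.89 in ES cells. The day-1 arrays lay above all others, at 0.65 ± 0.07 (SE; limma adjusted p = 6.8e-06) over fibroblasts, which is under the 2-fold bound. Over iPS cells the lead was slight: iPS cells differed from day-1 cells by -0.14 ± 0.07 (limma adjusted p = 0.071). Snrpd1 rose by 1.06 ± 0.09 in iPS cells and 1.27 ± 0.09 in ES cells. The iPS call ended without fibroblast replicate 2.

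The Lsm genes were split. Of 12, 6 rose in iPS cells and 5 in ES cells. A further 4 were below fibroblasts in each line. Lsm5, part of the ring that binds the U6 tail, had 8.16, 8.22 and 8.19 in iPS cells and 8.99, 9.09 and 9.16 in ES cells, against 6.73, 6.37 and 6.66 in fibroblasts and 6.54, 6.64 and 6.60 at day 1. It rose by 1.60 ± 0.09 (SE) in iPS and by 2.49 ± 0.09 in ES cells, and iPS cells lay 0.89 ± 0.09 below ES cells (limma adjusted p = 3.5e-06). The 4 below fibroblasts were Lsm8, Lsm10, Lsm12 and Lsm14b. Lsm10, a subunit of the U7 snRNP that trims histone mRNAs, fell by 1.24 ± 0.08 in ES cells, to 7.15, 7.39 and 7.44, against 8.67, 8.53 and 8.52 in fibroblasts. With quantile-normalized or centred arrays its difference was -0.91 or -0.90 and the call ended. Lsm12 stood at -0.99 ± 0.06 in iPS cells. Lsm4 had 10.85, 10.95 and 10.87 at day 1, against 10.11, 10.01 and 9.91 in fibroblasts, a difference of 0.88 ± 0.07 under the bound (limma adjusted p = 3.8e-07), and rose by 1.09 ± 0.07 in iPS cells.

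The 25 Rbm genes share an RNA recognition motif and little else, and they moved in both directions. In iPS cells 8 rose and 3 fell, and in ES cells 13 rose and 2 fell. Rbm8a, the Y14 subunit of the exon junction complex, had 11.78, 11.76 and 11.82 in iPS cells and 11.73, 11.76 and 11.78 in ES cells, against 9.90, 9.96 and 9.76 in fibroblasts, a rise of 1.91 ± 0.07 (SE; limma adjusted p = 3.2e-11) in iPS cells. The probe set of its near copy Rbm8a2 stayed between 2.78 and 3.62 on all 12 arrays. Rbm17, which acts at the U2 snRNP, rose by 1.70 ± 0.12 in iPS cells and 1.67 ± 0.12 in ES cells. Rbm25, a regulator of exon choice, rose by 1.56 ± 0.09 and 2.29 ± 0.09. Rbm46, known from germ cells, fell: it had 5.67, 5.59 and 5.73 in iPS cells and 5.96, 6.38 and 5.77 in ES cells, against 7.25, 7.49 and 7.71 in fibroblasts.

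Rbm24, a muscle splicing regulator, had 6.78, 6.81 and 6.90 at day 1, against 5.97, 6.02 and 6.23 in fibroblasts, and 6.69, 6.71 and 6.65 in iPS cells and 6.37, 6.30 and 6.28 in ES cells. At day 1 the difference was 0.76 ± 0.08 (SE; limma adjusted p = 3.4e-06), under the 2-fold bound. Rbm47, a partner of the RNA-editing enzyme Apobec1, had 8.19, 8.37 and 8.23 in ES cells, against 7.40, 6.91 and 6.72 in fibroblasts, and rose by 1.26 ± 0.14. In iPS cells its difference of 0.75 ± 0.14 was not called. Rbm15, which guides adenosine methylation of RNA, differed by 0.64 ± 0.09 in iPS cells and rose by 1.02 ± 0.09 in ES cells. Rbm10, a regulator of exon skipping, rose by 1.01 ± 0.12 in iPS cells and differed by 0.86 ± 0.12 in ES cells. The Rbm15 call ended without fibroblast replicate 3 (0.99) or ES replicate 2 (0.96), and the Rbm10 call without iPS replicate 3 (0.91) or fibroblast replicate 2 (0.98). Rbm43, named to complete the count of falls, fell by 1.88 ± 0.10 in iPS cells and by 1.86 ± 0.10 in ES cells.

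Rbm33 and Rbm12b2 had patterns of their own. Rbm33 had 7.45, 7.74 and 7.78 in fibroblasts, 6.13, 6.31 and 5.82 at day 1, 5.68, 5.71 and 5.97 in iPS cells and 7.31, 7.33 and 7.32 in ES cells. The day-1 and iPS arrays overlapped each other and lay below both fibroblasts and ES cells. The day-1 difference was -1.57 ± 0.12 (SE; limma adjusted p = 4.3e-07), and between iPS and ES cells it was -1.53 ± 0.12 (limma adjusted p = 6.2e-07). In ES cells Rbm33 differed from fibroblasts by -0.34 ± 0.12. The ES cells are of strain 129 and the fibroblasts carry the OG2-GFP reporter, and strain, passage and line differ together between the groups. The day-1 and iPS sample records are numbered apart from those of fibroblasts and ES cells. The labels do not say whether the arrays were run apart too. Day-1 cells were also derived from OT iPS cells and have the same genotype label as the iPS group. The part of that origin or of separate runs in the Rbm33 pattern was not tested. Rbm12b2 had 7.31, 7.08 and 7.38 in fibroblasts, 5.79, 5.86 and 5.97 at day 1, 7.63, 8.04 and 8.15 in iPS cells and 8.87, 9.0 and 8.69 in ES cells. It was lowest at day 1 without overlap, at -1.38 ± 0.13 against fibroblasts (limma adjusted p = 2.0e-06). A probe set annotated to both Rbm12b2 and Rbm12b1 was left out, and whether the Rbm12b2 probe set also reads Rbm12b1 was not tested.

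Doxycycline, the ES medium and the source of the fibroblasts differed together in the day-1 comparison. The members called were few: Srsf1 and Rbm19 rose, and Rbm33, Rbm12b2 and Srsf5 fell. Rbm19, needed for ribosome assembly, had 8.36, 8.3 and 8.21 at day 1, against 7.60, 7.08 and 7.15 in fibroblasts (1.01 ± 0.12, SE; limma adjusted p = 1.2e-05). Its call ended after quantile normalization (0.98) and without day-1 replicate 1 or fibroblast replicate 2 or 3. Without the 2-fold bound, 46 members were higher and 16 lower, 62 of 105, beside 5449 of all 9539 genes by the same adjusted p alone. These 2 shares were close. The 5449 genes were not divided by direction. By sign alone, 71 members and 5219 of all genes were above 0. The proliferation list moved far more, with 18 of 19 genes called higher and a median of 1.39. Its array means were 10.10 to 10.15 at day 1 and 8.62 to 8.93 in fibroblasts. Of 6 measured neural markers all rose at day 1, with array means of 8.45 to 8.51 against 6.10 to 6.49 in fibroblasts, and 3 of 9 macrophage markers fell while 1 rose. The part of such cells in the day-1 differences was not tested.

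Between iPS and ES cells 3 of the 105 members were called. Of the 64 SR, hnRNP, SF3, Prpf, Snrp and Lsm genes, 0 passed in limma. Their median was -0.14, and 38 of the 64 had an unadjusted p under 0.05, as had 5926 of all 9539 genes. Over all 105 members the median was -0.16, against 0.01 for all genes. A difference below 0 was found for 73 members and for 4647 of all 9539 genes. With centred arrays the members' median was -0.25 and that of all genes -0.08. The 3 calls were Rbm33 and Igf2bp1, lower in iPS cells, and Rbms3, higher by 1.03 ± 0.08 (SE; limma adjusted p = 5.9e-07). Rbms3, with 7.39, 7.26 and 7.45 in iPS cells and 6.45, 6.39 and 6.17 in ES cells, lost its call with centred arrays (0.94), without iPS replicate 3 (0.99) and without ES replicate 3 (0.95). With centred arrays 0 members were called higher and 3 lower by limma.

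Like Rbms3, several markers of fibroblasts and smooth muscle were higher in iPS than in ES cells. Of 13 fibroblast markers 5 were higher and 1 was lower in iPS than in ES cells, with array means of 8.34 to 8.46 in iPS cells and 7.38 to 7.79 in ES cells. Of 8 smooth muscle markers 6 were higher, with array means of 9.27 to 9.32 and 7.29 to 7.79. Their part in the Rbms3 difference was not tested. Esrp1, an epithelial splicing regulator outside the rule, was 3.47-fold lower in iPS cells, at 6.94, 6.75 and 6.91, against 8.79, 8.39 and 8.82 in ES cells (-1.80 ± 0.11, SE; limma adjusted p = 7.0e-08). Smn1, whose protein loads Sm rings onto snRNAs, differed by -1.03 ± 0.09 and was called lower.

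The difference between iPS and day-1 cells was set beside that between ES cells and fibroblasts, since these 2 comparisons share no array. Of the 38 members that rose in iPS over day-1 cells, 37 (97.4%) also rose in ES cells over fibroblasts, where they made up 62.7% of 59. All 9 that fell also fell in ES cells (90% of 10), and 0 were called in opposite directions. Over all genes, the shares of shared rises were 81.4% and 61.1%, those of shared falls 83.7% and 69.3%, and 16 genes had opposite calls. In ES cells over fibroblasts 56.2% of members rose and 9.52% fell, against 23.4% and 32.1% of all genes. With such unequal base rates the shares of members and of all genes cannot be compared directly. The members' differences had the same sign in 100 of 105 cases (95.2%), against 91.8% of all genes, and correlated with r = 0.94, against 0.87 over all genes, where genes are not independent replicates. Rbm12b2 and Srsf5, both low at day 1, had iPS over day-1 differences of 2.06 ± 0.13 and 2.59 ± 0.08 (SE). These exceeded their ES over fibroblast differences of 1.59 ± 0.13 and 1.69 ± 0.08. Other rises did so too, such as Prpf39 (1.18 ± 0.13 against 0.76 ± 0.13) and Prpf38b (1.48 ± 0.07 against 1.25 ± 0.07). A low day-1 level enters the first of these differences directly.

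**Figure D4:**
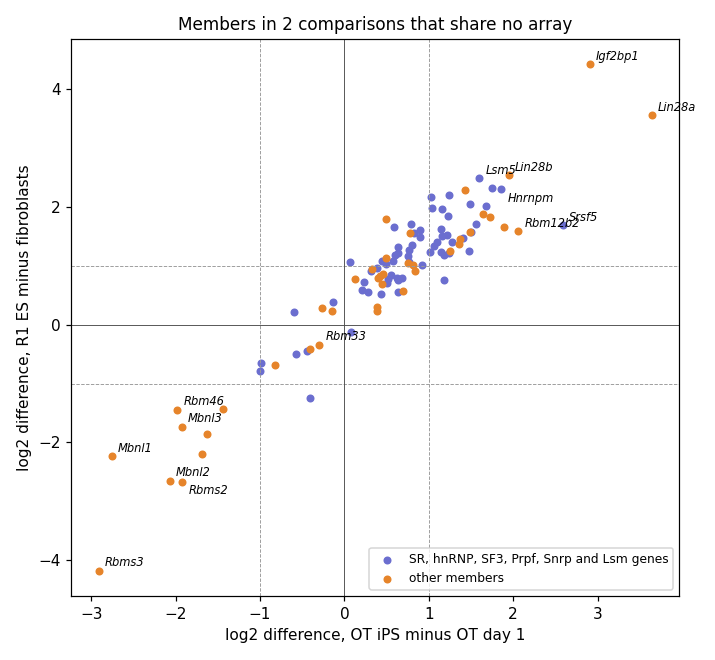
Log2 difference of each of the 105 members between iPS and day-1 cells (horizontal axis) and between ES cells and fibroblasts (vertical axis), with dashed lines at 2-fold. Points run along a diagonal (r = 0.94) from Rbms3 and the Mbnl genes to Lin28a and Igf2bp1, with no point past 2-fold in opposite directions.

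Other genes of the splicing pathway that the symbol rule does not cover were counted as lists. Of 61 listed spliceosome genes 43 were measured. Of these 23 rose and 2 fell in iPS cells (median 1.09) and 30 rose and 1 fell in ES cells (median 1.31), and at day 1 limma called 0. Of the 43, 29 had an unadjusted p under 0.05 there, as had 5870 of all 9539 genes. Cdc5l, of the complex that activates the spliceosome, rose by 2.61 ± 0.09 (SE) in iPS cells and 2.88 ± 0.09 in ES cells, with 12.12, 11.95 and 12.20 in iPS cells, against 9.47, 9.58 and 9.41 in fibroblasts. Sart3, which recycles U4/U6 snRNPs, rose by 2.17 ± 0.07 and 2.16 ± 0.07. An exception was Bud31, named after its values were seen, which fell by 1.31 ± 0.09 and 1.25 ± 0.09.

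Of 19 genes for the SMN complex, snRNP assembly and snRNP import, 12 rose and 1 fell in iPS cells and 13 rose and 0 fell in ES cells. Gemin6 rose by 2.72 ± 0.09 (SE) and 2.93 ± 0.09, and Gemin7, which pairs with Gemin6 in the same complex, fell by 1.42 ± 0.06 in iPS cells and differed by -0.79 ± 0.06 in ES cells. Of 26 listed genes for exon junction complexes and mRNA export, 13 were measured. Of these 3 (23.1%) rose in iPS cells and 5 (38.5%) in ES cells, against 21.8% and 23.4% of all genes. The share in iPS cells was thus near that of all genes. Thoc1 of the export complex was among those that rose (1.45 ± 0.09 and 1.83 ± 0.09). Of 37 other splicing regulators 27 were measured, and of these 12 rose and 1 fell in each line. Called or not, 8 of the 27 were below fibroblasts in iPS cells and 6 in ES cells. The lowest difference was that of Zcrb1, named after its values were seen, at -1.55 in iPS cells and -2.11 in ES cells. Safb, a scaffold attachment protein that binds RNA, rose by 2.18 ± 0.09 in iPS cells, and Elavl2, a neuronal-type AU-rich element binder, by 2.06 ± 0.17.

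Promoters of the members were described from RefSeq windows of 300 bases, build GRCm38.p6, which matched 87 of the 105 members at 117 start sites. Among the members without an entry were Igf2bp1 and Rbm12b2. On either strand, CACGTG (E-box) was in 13.7% of the members' windows, against 7.15% of all 32851 windows of the same length, and CCGGAAGT (ETS) in 12.8% against 3.89%. CCAAT was in 39.3% against 37.4%, TATAAA in 10.3% against 13.6%, and the octamer ATGCAAAT, the class of site that Oct4 binds, in 0% against 1.74%. No motif in this set lies within another. The median G and C content was 60.7% against 52.7%, and the observed over expected CpG ratio 0.90 against 0.38.

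The windows were also divided by direction in iPS cells against fibroblasts. Of the members that rose in iPS cells, 41 had 55 windows, and of those that fell 10 had 19 windows. ETS letters were in 18.2% of the windows of rising members and 0% of those of falling members, TATAAA in 7.27% and 21.1%, and CACGTG in 14.5% and 15.8%. The median CpG ratio was 0.96 and 0.43. Windows of a gene with several start sites overlap or lie close together, so these shares are descriptions with no test.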

How the data were processed

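RNA of 12 samples was labelled with Affymetrix's WT Terminal Labeling Kit and hybridised to arrays, per the labels' protocols. The authors deposited 1 table of log2 values per probe set. The log2 scale was inferred from the range of 2.43 to 13.64, and the summary and normalization methods are not given in the sources used here. Gene symbols came from the platform annotation. Of 10360, 9542 had 1 symbol, 344 several and 474 none. For 3 genes with over 1 probe set, the one with the highest mean was used, which left 9539 genes.

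Limma 3.58.1 (R 4.3.3) fitted group means to the 12 arrays, with moderated variances (eBayes) and Benjamini-Hochberg adjustment over the 9539 genes. The number of arrays limits the precision. Every p in the text comes from limma, and calls require both an adjusted p below 0.05 and at least a 2-fold difference. The steps were tested on simulated data. Members, lists and tests were chosen with earlier results of these data known. Named genes are, per comparison, up to 12 called members by size, fixed tissue and oncofetal regulators, the members nearest to the 2-fold bound in each family, up to 4 called genes per list and the 6 steadiest members. Others were named after their values were seen, to complete a count, a family or a pattern. Alternatives changed the scaling (quantile normalization, centred arrays), the genes tested (without the dimmest 25%, or every probe set), the fit (only the 6 arrays of a comparison, array weights, trended robust prior, replicate block), the call (treat, or no fold bound) and the arrays (each left out in turn). Tables and plots used Python 3.11.15, pandas 2.3.3, numpy 2.4.6 and matplotlib 3.10.9.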

Additional observations from a re-analysis of the deposited data

How the results depend on the processing

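Of 166 differences of named genes, recomputed 2637 times over the alternatives, 2454 kept direction and call, 46 lost the call, 123 gained one and 14 reversed. Among the counts of called members, without a fold minimum those at day 1 were 46 higher and 16 lower, in iPS cells against fibroblasts 84 and 18, in ES cells 85 and 17, in iPS against ES cells 11 and 46, and in iPS against day-1 cells 81 and 18. Of all 9539 genes, 5449, 8985, 9050, 5502 and 8851 had an adjusted p under 0.05 in those comparisons, in that order. These totals were not divided by direction, so they are no background for the members' split into higher and lower. Limma's treat gave 0 higher and 1 lower at day 1, 0 higher in iPS than in ES cells and 25 higher in iPS than in day-1 cells. Quantile normalization left 1 member higher at day 1, and centred arrays left 0 higher in iPS than in ES cells. Without the lowest 25% of genes 1 member was lower in iPS than in ES cells, because Rbm33 was not tested. Leaving out each array gave 1 to 2 higher and 3 lower at day 1, 45 to 47 and 10 to 11 in iPS cells against fibroblasts, 56 to 59 and 10 in ES cells, 0 to 1 and 2 to 3 in iPS against ES cells, and 38 and 9 to 11 in iPS against day-1 cells. The day-1 count of 1 came without day-1 replicate 1 or fibroblast replicate 2 or 3, and the count of 0 in iPS against ES cells without iPS replicate 3 or ES replicate 3. The reversals were of differences that were not called: Igf2bp1 at day 1 (-0.01 to 0.12 over left-out arrays, with -0.01 without day-1 replicate 2), Qk at day 1 (-0.11 to 0.54, with -0.11 without fibroblast replicate 3), Qk in iPS cells against fibroblasts (0.13 after quantile normalization, 0.14 with centred arrays, and -0.37 to 0.27 over left-out arrays), Lin28a in iPS against ES cells (0.01 after quantile normalization and -0.09 to 0.03 over left-out arrays), Celf2 in iPS against ES cells (-0.01 to 0.24 over left-out arrays), Rbm8a2 in iPS against ES cells (-0.02 with centred arrays and -0.11 to 0.28 over left-out arrays) and Sf3b5 in ES cells against fibroblasts (0.14 after quantile normalization and 0.22 with centred arrays). The cause of these changes was not tested, apart from Rbm33. Deviations of same-numbered arrays from their group means correlated with r between -0.208 and 0.064, and those of differently numbered arrays reached 0.184. With 3 arrays per group this check cannot exclude that the replicate numbers pair the samples. With the replicate block the counts in iPS cells against fibroblasts were 46 higher and 10 lower, and no call of a named gene changed.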
